A study of Mus musculus with 9 samples.

Results

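The glucocorticoid receptor (GR) and the mineralocorticoid receptor (MR) had 763 peaks after corticosterone (CORT) whose nearest annotated gene was over 50 kb away, and these peaks are described here. A peak was included when its summit, the base with the highest signal, was more than 50 kb from the body of every gene of any type in GENCODE M21, on chromosomes 1 to 19 and X of mm10. This gave 333 of 10567 GR peaks (3.15%, 95% Wilson interval 2.83 to 3.50) and 430 of 14560 MR peaks (2.95%, 2.69 to 3.24), or 763 of 25127 in all. The rule used position only, so the strength, sharing, persistence and sequence of the peaks were free to vary.

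The peaks came from ChIP-nexus, a form of chromatin immunoprecipitation in which exonuclease trims the bound DNA, in Neuro2A (N2A) cells, a mouse neuroblastoma line. The cells carried EGFP-GR and mCherry-MR from transiently transfected vectors, and each receptor was precipitated through its fluorescent tag. N2A cells also have their own untagged GR and lack MR. The 9 samples were GR, MR and input chromatin after vehicle, after 100 nM CORT for 20 minutes, and after the same CORT pulse with washing and 40 minutes in medium free of steroid (washout). The authors combined 3 replicates per condition before calling peaks, so each condition gave 1 list without a spread between replicates. The tests compare peaks within such a list and say nothing of how replicates would differ. The files hold no read counts, so the reads behind a peak are not known from them. The deposited lists of GR peaks held 64 after vehicle, 10602 after CORT and 246 after washout, and those of MR peaks held 73, 14638 and 4885.

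Corticosteroid receptors are transcription factors that enter the nucleus when they bind a steroid such as CORT, the main glucocorticoid of rodents. MR has the higher affinity for CORT and therefore stays occupied at lower hormone levels than GR. Both receptors recognise the glucocorticoid response element (GRE), a pair of inverted half-sites, and both can also act through sites bound by other factors such as AP-1. Many of their sites are enhancers, which can lie far from the promoters they serve, so the nearest gene is a landmark and not a known target.

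The sequences around the summits of the strongest distant peaks show how the sites differ in their GRE. The GRE was searched as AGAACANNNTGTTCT on both strands, and the 15 bases that matched it best in the 121 bases around each summit are in capitals. The set is drawn from the 4 strongest peaks of each receptor, and all of those shown overlapped a CORT peak of the other receptor, and the sequences are from the GRCm38 (mm10) reference, plus strand.
GR rank 1, Dmrta2 to Elavl4, chr4:110052026-110052146: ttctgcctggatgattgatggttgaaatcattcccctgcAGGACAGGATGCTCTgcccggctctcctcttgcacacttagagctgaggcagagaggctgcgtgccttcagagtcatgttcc
MR rank 1, Sox9 to Slc39a11, chr11:112991747-112991867: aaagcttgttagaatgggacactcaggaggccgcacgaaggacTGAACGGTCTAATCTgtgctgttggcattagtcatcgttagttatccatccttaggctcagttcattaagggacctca
GR rank 2, Irf2bp2 to Tomm20, chr8:126669673-126669793: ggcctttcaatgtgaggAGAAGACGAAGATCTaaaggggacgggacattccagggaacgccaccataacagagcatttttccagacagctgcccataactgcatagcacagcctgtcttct
MR rank 2, Myc to Gsdmc, chr15:62463114-62463234: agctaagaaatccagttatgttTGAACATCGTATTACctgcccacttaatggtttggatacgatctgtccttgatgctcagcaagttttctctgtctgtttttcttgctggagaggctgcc
GR rank 3, Disc1 to Sipa1l2, chr8:125341990-125342110: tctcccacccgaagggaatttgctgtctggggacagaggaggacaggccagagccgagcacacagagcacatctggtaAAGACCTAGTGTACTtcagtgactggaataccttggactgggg
MR rank 3, Pard3 to Nrp1, chr8:127719996-127720116: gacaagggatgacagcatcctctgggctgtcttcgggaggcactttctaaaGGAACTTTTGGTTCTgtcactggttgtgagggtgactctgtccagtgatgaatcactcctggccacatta
GR rank 4, Dmrta2 to Elavl4, chr4:110134323-110134443: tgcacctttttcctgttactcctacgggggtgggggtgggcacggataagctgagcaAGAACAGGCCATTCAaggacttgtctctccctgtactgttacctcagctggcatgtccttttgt

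The capitals in the GR peak beside Dmrta2 differed from the consensus at 2 of the 12 fixed bases and were centred 14 bp from the summit. The capitals in the first MR peak between Pard3 and Nrp1 differed at 3 bases and were centred 2 bp from the summit. The strongest distant MR peak, between Sox9 and Slc39a11, had nothing closer to the consensus than 4 mismatches. The same was true of the MR peak between Myc and Gsdmc and of the GR peak between Disc1 and Sipa1l2. High strength was thus found with and without a close match to the GRE.

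Far-lying sequence was sparsely bound by both receptors. Bases more than 50 kb from every gene made up 361 Mb of 2559 Mb (14.1%), but held 3.15% of GR and 2.95% of MR peaks. GR had 0.923 peaks per Mb there (95% Poisson interval 0.826 to 1.03) and 4.65 per Mb elsewhere, a ratio of 0.198. MR had 1.19 per Mb (1.08 to 1.31) against 6.43, a ratio of 0.185. MR peaks after washout gave a similar ratio of 0.222, with 171 of 4856 far from genes. Border pairs called by the authors in the input chromatin of CORT-treated cells, which hold no receptor pull-down, were also thinner far from genes but less so, at 1.14 against 2.18 per Mb, a ratio of 0.521. The intervals cover counting error only.

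**Figure D1:**
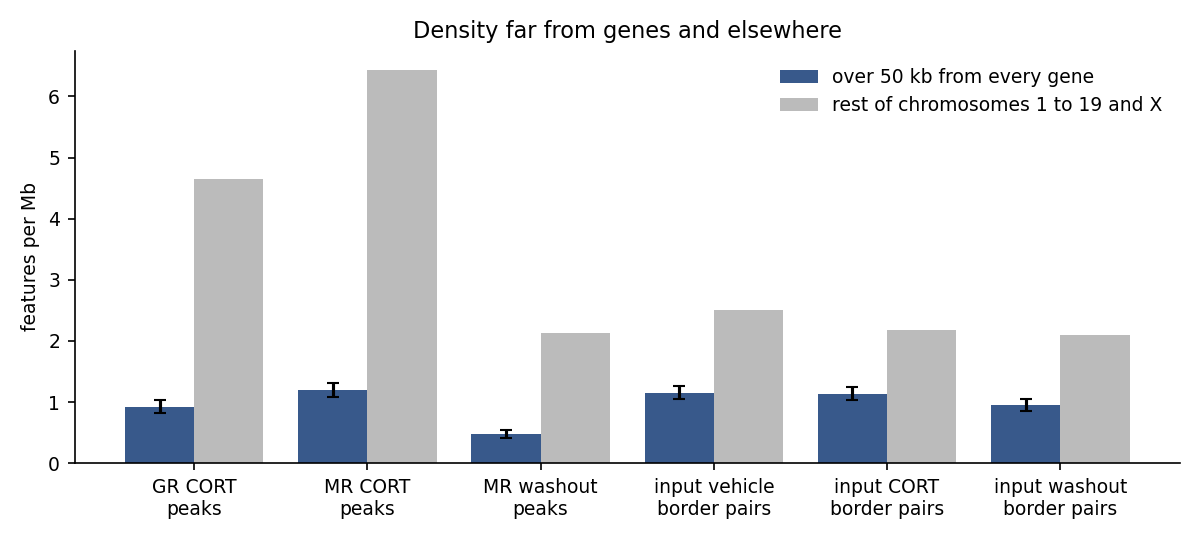
Number of features per Mb of sequence more than 50 kb from every gene (blue) and in the rest of chromosomes 1 to 19 and X (grey), with error bars of the 95% Poisson interval on the blue bars. GR CORT peaks reached 0.923 and MR CORT peaks 1.19 per Mb far from genes, against 4.65 and 6.43 elsewhere, while the input border pairs differed less.

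The distant peaks were densest near the limit of 50 kb. Bases 50 to 75 kb from a gene held 1.42 GR peaks per Mb (1.22 to 1.64) and 1.72 MR peaks per Mb (1.496 to 1.96). At 100 to 200 kb the densities were 0.627 (0.493 to 0.788) and 0.780 (0.629 to 0.957), and beyond 200 kb they were 0.518 (0.317 to 0.801) and 0.907 (0.632 to 1.26). The median distance to the nearest gene was 72.7 kb for GR and 74.5 kb for MR, and 179 of 333 GR and 217 of 430 MR peaks lay within 75 kb. Only 20 GR and 35 MR peaks were more than 200 kb away. The GR peak farthest from any gene was at chr8:101985405-101985494, 446 kb from the small nucleolar RNA gene Gm22223 and between the cadherin genes Cdh8 and Cdh11, with a −log10 p of 8.53. The farthest MR peak was at chr11:39364784-39364827, 362 kb from the pseudogene Gm12131, between Tenm2 and Mat2b, with a −log10 p of 6.28. Neither overlapped a peak of the other receptor or of its own receptor after washout.

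Most of these peaks were nearest to a gene that codes for no protein. A protein-coding gene was the closest gene for 109 GR peaks (32.7%) and 125 MR peaks (29.1%), a processed pseudogene for 75 and 86, and a long intergenic non-coding RNA gene for 67 and 107. Only 21755 of the 53843 annotated genes are protein-coding, and the closest gene types of the other peaks were not counted. A majority of non-coding genes is therefore not shown to be particular to these peaks. The median distance to a protein-coding gene was 132 kb for GR and 153 kb for MR. Peaks just inside the limit were at 50019 and 50085 bp for GR and 50126 and 50382 bp for MR. Those just outside it were at 49880 and 49863 bp for GR and 49898 and 49888 bp for MR, and their −log10 p, from 8.42 to 12.5, lay within the range of the peaks inside, 6.28 to 16.7.

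The distant peaks had the same median strength as the others. The −log10 p of a peak against input, which ranks peaks within a list and is no amount of binding, had a median of 8.66 for the distant and for the other GR peaks, and of 9.17 for both groups of MR peaks. A −log10 p of at least 20 was reached by 11 distant GR peaks (3.30%, beside 4.06% of the others) and by 30 distant MR peaks (6.98%, beside 5.53%). With each CORT list cut into 5 equal parts by −log10 p, the weakest part held 25.2% of the distant and 19.8% of the other GR peaks. The strongest part held 17.7% and 20.1%. For MR the shares were 18.8% and 20.0% in the weakest part, and 22.6% and 19.9% in the strongest. These differences were not tested. The maximum was 30.1 for GR and 36.7 for MR, and 77.0 and 69.9 in the far larger groups of other peaks. The strongest distant peak stood at place 73 in the whole GR list and 72 in the whole MR list. Widths were alike, with medians of 120 and 122 bp for GR and 65 and 63 bp for MR. The bases around the summits were poorer in G and C, with a median GC content of 47.8% against 51.2% for GR and 46.8% against 50.2% for MR, and the windows 1000 bp away showed the same order (43.0% against 47.3%, and 42.3% against 46.8%).

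Sharing between the receptors did not differ detectably between distant and other peaks. Of the 333 distant GR peaks, 188 (56.5%, 51.1 to 61.7) shared at least 1 bp with an MR CORT peak, where 61.0% of all GR CORT peaks did. Against the other GR peaks the odds ratio was 0.824 (95% interval 0.661 to 1.03, two-sided Fisher's exact test, adjusted p = 0.261 over the 12 comparisons made). Of the 430 distant MR peaks, 204 (47.4%, 42.8 to 52.2) overlapped a GR CORT peak, beside 47.6% of all MR peaks, with an odds ratio of 0.992 (0.818 to 1.2018, Fisher's exact test, adjusted p = 1.0). Joining overlapping distant peaks gave 556 sites, of which 185 held both receptors, 145 held GR alone and 226 held MR alone. Peaks are the units in these tests, and neighbouring peaks are not independent. The GR direction turned among peaks with a −log10 q of at least 5, where the odds ratio was 1.56 and the adjusted p was 0.120.

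After washout the receptors parted at the distant sites. Only 3 of 333 distant GR peaks (0.901%, 0.307 to 2.61) overlapped a GR washout peak, beside 2.01% of all GR CORT peaks, and the odds ratio to the other peaks was 0.436 (0.139 to 1.37, Fisher's exact test, adjusted p = 0.399). MR kept 115 of 430 distant peaks (26.7%, 22.8 to 31.1), beside 24.5% of all MR CORT peaks, with an odds ratio of 1.13 (0.907 to 1.40, Fisher's exact test, adjusted p = 0.480). Without chromosome 8 the MR odds ratio was 0.987, and at more than 100 kb from genes it was 0.790. The MR share fell from 64 of 217 peaks (29.5%, 23.8 to 35.9) at 50 to 75 kb from a gene to 5 of 35 (14.3%, 6.26 to 29.4) beyond 200 kb, and these intervals overlapped. Of the 556 sites, 113 had an MR washout peak without a GR one, 3 had both, 0 had GR alone and 440 had neither.

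MR washout peaks stood more often at distant sites that MR had shared with GR, as they did among the other peaks. Of the 185 sites that both receptors occupied after CORT, 88 kept a peak, 85 with MR alone and 3 with both receptors. At the 226 sites of MR alone, 23 kept an MR peak. Counted over peaks, 92 of 204 distant MR peaks with a GR partner (45.1%, 38.4 to 52.0) overlapped an MR washout peak, and 23 of 226 without one (10.2%, 6.88 to 14.8). Among the other MR peaks the shares were 39.9% and 10.5%. The partnered peaks were also the stronger ones, with a median −log10 p of 11.98 against 7.83. Seen from GR, 89 of the 188 distant GR peaks with an MR partner (47.3%, 40.3 to 54.5) had an MR washout peak in the same place, against 5 of 145 without one (3.45%, 1.48 to 7.82), and among the other GR peaks the shares were 42.5% and 5.76%. The part of peak strength in this difference was not tested.

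Both kinds of overlap followed strength, far from genes and elsewhere. When each CORT list was divided into 5 equal parts by −log10 p, the share of distant MR peaks with an MR washout peak was 7.41% in the weakest and 64.9% in the strongest part, beside 7.35% and 60.9% of the other MR peaks. Overlap with GR went from 22.2% to 82.5% in the distant MR peaks. Overlap with MR went from 31.0% to 91.5% in the distant GR peaks, although part 2, at 51.4%, stood above part 3, at 46.7%. In each of these parts the interval of the distant peaks overlapped that of the other peaks.

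**Figure D2:**
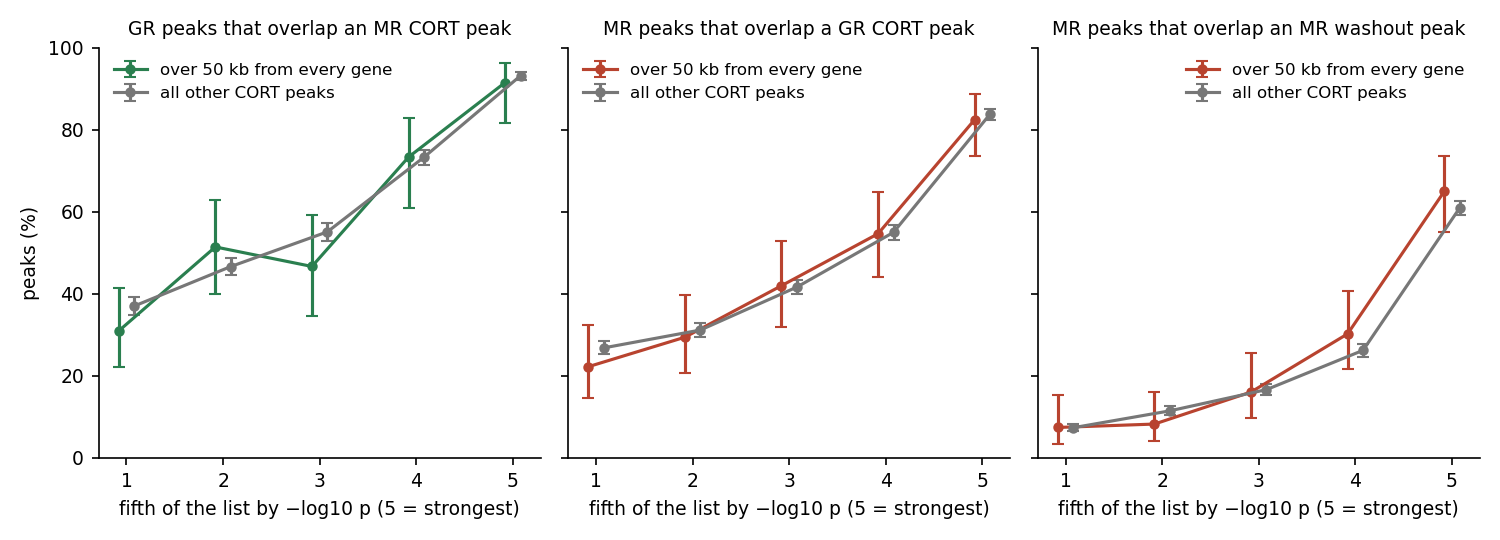
Share of peaks (%) that overlap a peak of the other receptor or an MR washout peak, in 5 equal parts of the whole CORT list from weakest (1) to strongest (5), for peaks more than 50 kb from every gene (coloured) and all other CORT peaks (grey), with 95% Wilson intervals. The coloured and grey lines run together, and the MR washout share is 64.9% and 60.9% in part 5.

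The 3 distant GR peaks that remained after washout could be named, although the rule for naming genes did not choose them. The strongest, at chr8:125343784-125343995 between Disc1 and Sipa1l2, had a −log10 p of 21.8. Disc1 encodes a scaffold protein linked to psychiatric disease, and Sipa1l2 a regulator of small GTPases of the Rap family. The peak at chr4:28176903-28177035, between Manea and the ephrin receptor gene Epha7, had a −log10 p of 17.4. The peak at chr4:64497802-64498044, between the matrix glycoprotein gene Tnc and Pappa, had one of 14.8. All 3 overlapped MR peaks after CORT and after washout. Both peaks on chromosome 4 also overlapped a border pair of the input, and the one beside Tnc overlapped a vehicle peak, whereas the peak beside Disc1 overlapped neither.

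Few distant peaks met a feature of the control libraries. An input border pair was met by 3 of 333 GR peaks (0.901%) and 3 of 430 MR peaks (0.698%), beside 0.528% and 0.396% of the other peaks. A vehicle peak of either receptor was met by 1 of each, beside 55 of 10234 other GR and 63 of 14130 other MR peaks. An MR border pair, the pair of edges that exonuclease leaves beside a bound protein, was found at 35 distant GR peaks (10.5%) and 42 distant MR peaks (9.77%), beside 11.6% and 10.2% of the other peaks. These pairs stood at 33 of 188 GR peaks with an MR partner (17.6%, 12.8 to 23.6) and at 2 of 145 without one (1.38%, 0.379 to 4.89), and at 18.0% and 1.51% of the other GR peaks with and without a partner.

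The share of peaks with a GRE did not differ detectably between the distant peaks and the others. A stretch with at most 3 mismatches in the 12 fixed bases lay within 100 bp of the summit in 129 distant GR peaks (38.7%, 33.7 to 44.1) and 37.7% of the other GR peaks (odds ratio 1.05, 0.837 to 1.31, Fisher's exact test, adjusted p = 0.826). In MR the shares were 178 of 430 (41.4%, 36.8 to 46.1) and 39.8% (odds ratio 1.07, 0.878 to 1.297, Fisher's exact test, adjusted p = 0.688). Of windows of the same width placed 1000 bp to each side of the distant summits, 14.1% held such a stretch around GR peaks and 15.1% around MR peaks. The median distance from summit to the best GRE was 31 bp in GR and 15.5 bp in MR. The consensus without mismatch was in 0 distant peaks, and in 0.176% of the other GR and 0.170% of the other MR peaks, a share too low for groups of this size to show a difference. With 1 mismatch it was in 3 distant GR peaks (0.901%, beside 1.69%) and 8 distant MR peaks (1.86%, beside 1.88%). At 2 mismatches or fewer the MR odds ratio was 0.993, and at 4 or fewer the GR odds ratio was 0.961.

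AP-1, a dimer of Fos and Jun proteins, had the highest odds ratios of the 3 motifs with these settings. TGAGTCA or its reverse TGACTCA lay within 100 bp of 42 distant GR summits (12.6%, 9.47 to 16.6) and of 8.61% of the others (odds ratio 1.53, 1.10 to 2.13, Fisher's exact test, p = 0.0136, adjusted p = 0.0817). It lay near 49 distant MR summits (11.4%, 8.73 to 14.7) and 7.70% of the others (odds ratio 1.54, 1.14 to 2.09, Fisher's exact test, p = 0.00783, adjusted p = 0.0817). Neither difference passed the adjusted threshold of 0.05. Both passed Fisher's exact test when the window was 200 bp to each side, at 21.9% against 14.1% for GR (adjusted p = 0.00206) and 17.9% against 13.1% for MR (adjusted p = 0.0169). With 50 bp to each side neither did (Fisher's exact test, adjusted p = 0.348 and 0.300), and beyond 100 kb from genes the odds ratios were 1.11 and 1.23. The windows 1000 bp from the distant summits held AP-1 less often, 4.35% of them around GR peaks and 4.30% around MR peaks. The GR and MR peaks share sites, so their AP-1 values are not independent.

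Among the distant MR peaks, AP-1 stood at 21 of the 115 that overlapped a washout peak (18.3%, 12.3 to 26.3) and at 28 of the 315 that did not (8.89%, 6.22 to 12.5), beside 8.47% and 7.45% of the other MR peaks. It stood at 31 of the 204 with a GR partner (15.2%, 10.9 to 20.8) and at 18 of the 226 without (7.96%, 5.10 to 12.2), beside 8.91% and 6.597%. In both contrasts the intervals of the distant peaks overlapped. Distant GR peaks held AP-1 at 25 of 188 with an MR partner (13.3%) and 17 of 145 without (11.7%). Among the other GR peaks the shares were 8.95% and 8.07%. For the GRE the shares of the distant MR peaks were 47.8% and 39.0% with and without washout overlap, and these intervals overlapped too. The other MR peaks had 48.5% and 37.0%. These groups also differed in strength, and its part was not tested.

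The short GATA motif AGATAA, searched on both strands, was found near 50 distant GR summits (15.0%, 11.6 to 19.2) and 11.3% of the others (odds ratio 1.38, 1.02 to 1.88, Fisher's exact test, p = 0.0440, adjusted p = 0.176). In MR it was found near 60 (14.0%, 11.0 to 17.5) and 12.5% (odds ratio 1.13, 0.859 to 1.496, Fisher's exact test, adjusted p = 0.563). The windows 1000 bp away held it in 13.5% (GR) and 14.1% (MR) of positions around the distant peaks and in 10.3% and 10.5% around the others, so that its share at the distant summits was close to that of their surroundings. With 200 bp to each side both GATA differences passed the threshold of Fisher's exact test (adjusted p = 0.0169 for each). Soft-masked repeats covered the summit of 17 distant GR peaks (5.11%) and 28 distant MR peaks (6.51%), beside 6.75% and 6.55% of the others (Fisher's exact test, adjusted p = 0.480 and 1.0), and 24.5% and 23.8% of the windows 1000 bp away. None of the 12 comparisons passed the adjusted threshold by Fisher's exact test, and 3 had an unadjusted p under 0.05. A motif match is a description of letters and does not show which factor was bound.

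**Figure D3:**
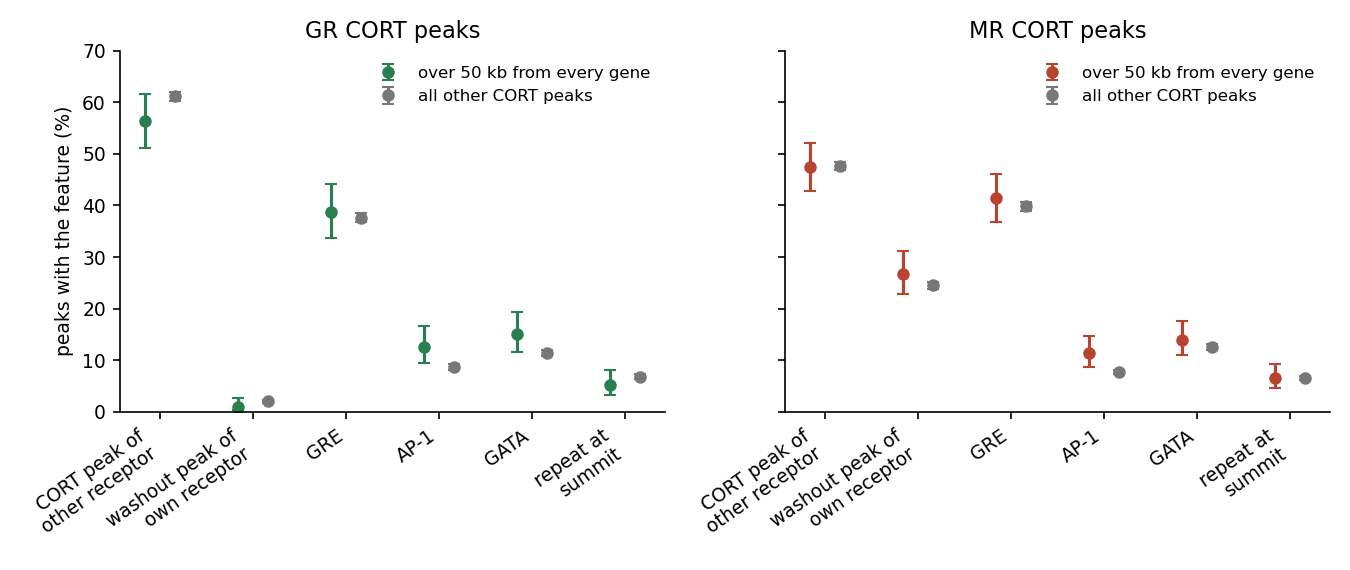
Share of CORT peaks (%) with each of 6 features, for peaks more than 50 kb from every gene (coloured) and all other peaks of the same receptor (grey), with 95% Wilson intervals. The AP-1 points are apart for both receptors, at 12.6% against 8.61% in GR and 11.4% against 7.70% in MR, and the intervals of every other pair overlap.

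The strongest distant peaks were occupied by both receptors. All 10 of the strongest GR and all 10 of the strongest MR peaks overlapped a peak of the other receptor. After washout all 10 MR peaks still overlapped an MR peak, whereas 1 of the 10 GR peaks overlapped a GR peak, and 8 of the 10 GR peaks stood where MR had a washout peak. Among the strongest 50 of each receptor, 47 GR and 44 MR peaks had a partner, and 3 GR and 39 MR peaks overlapped a washout peak of their own receptor. In part 5 of the lists by strength, 93.2% of the other GR and 83.8% of the other MR peaks had a partner too. A washout peak of the same receptor was met by 7.74% of these GR and 60.9% of these MR peaks. Among the distant peaks of part 5 the shares were 5.08% and 64.9%.

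The strongest distant GR peak, at chr4:110052018-110052159, had a −log10 p of 30.1. It was 68.4 kb from Dmrta2, a transcription factor of cortical patterning, and 152 kb from Elavl4, which encodes a neuronal RNA-binding protein. MR had its seventh strongest distant peak at the same place, with a −log10 p of 27.9 after CORT and 16.2 after washout. A second GR peak between these genes, at chr4:110134312-110134460, had a −log10 p of 21.8 and overlapped an MR peak of only 9.17 and no washout peak. The levels of the 2 receptors come from separate libraries and are given side by side without comparison.

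The region between Irf2bp2, a transcriptional corepressor, and Tomm20, a receptor of mitochondrial protein import, gave 3 of the 10 strongest GR peaks, with −log10 p of 27.2, 21.8 and 21.2. The first of them, at chr8:126669300-126669968, was also the fifth strongest distant MR peak, at 28.3 after CORT and 17.1 after washout. All 3 overlapped MR peaks after CORT and after washout. The third and the fifth GR peaks, at 25.1 and 21.8, lay between Disc1 and Sipa1l2, 76.0 and 74.1 kb from the latter.

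Other GR peaks of the 10 strongest had a regulator of sympathetic neurons among their flanking genes, though not always as the nearer gene. The seventh, at chr13:115421656-115421802, lay 877 kb from Isl1, a homeodomain factor of sympathetic and motor neurons, and 320 kb from the integrin gene Itga1, with a −log10 p of 21.8. It overlapped an MR peak of 22.2, and neither receptor had a washout peak there. The ninth, at chr8:57214089-57214312, lay 107 kb from Hand2, a basic helix-loop-helix factor of sympathetic neurons, and 620 kb from Fbxo8, at 20.3. At this site MR had a peak after CORT and after washout, while GR had none after washout.

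The strongest distant MR peak, at chr11:112991730-112991839, had a −log10 p of 36.7 after CORT and 15.7 after washout. It overlapped a GR peak of 9.99. It lay 204 kb from Sox9, a transcription factor of neural crest and cartilage, and 253 kb from the zinc transporter gene Slc39a11. The second, at chr15:62463106-62463213, lay 473 kb from the proto-oncogene Myc and 1313 kb from Gsdmc, with 34.9 after CORT and 15.1 after washout. The third and sixth, at 32.8 and 28.3, lay between the polarity gene Pard3 and Nrp1, a co-receptor for semaphorins and VEGF.

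The eighth MR peak, at chr7:77771477-77771554, lay 404 kb from Ntrk3, the receptor of neurotrophin 3, and 647 kb from Agbl1, with a −log10 p of 27.9 after CORT and 9.01 after washout. The ninth, at chr8:54393878-54394191, lay 207 kb from Vegfc, a growth factor of lymphatic vessels, and 126 kb from Spcs3. It had 27.9 after CORT and 22.6 after washout, the highest washout value among the 10. The tenth, at chr19:54255602-54255970, lay 207 kb from Adra2a, an adrenergic receptor, and 811 kb from Gpam, with 26.8 and 19.5.

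Peaks that 1 receptor alone had after CORT came lower in the ranking. The strongest distant GR peak without an MR partner stood at rank 30, at chr14:105732195-105732352, with a −log10 p of 16.7, and lay 160 kb from Spry2, an inhibitor of receptor tyrosine kinase signalling. It overlapped an MR washout peak and no GR washout peak. It was among the 5 of 145 distant GR peaks without an MR partner that overlapped an MR washout peak. The strongest MR peak without a GR partner stood at rank 22, at chr19:15049066-15049130, with 22.9, between the corepressor gene Tle4 and Psat1, and it overlapped an MR washout peak. A second such MR peak on the other side of Tle4, at rank 32, with 19.6, also did. The MR peak at chr1:41999320-41999389, 696 kb from the neural factor gene Pou3f3, had 20.7 and did not.

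Few gene-free intervals held a distant peak. Of 3304 gene-free intervals wide enough to hold a base more than 50 kb from every gene, 241 (7.29%) held a distant peak, 181 of them a GR peak and 141 a peak of each receptor. Another distant peak of the same receptor lay within 10 kb of 146 GR peaks (43.8%) and 225 MR peaks (52.3%), and any peak of the list lay that close to 52.8% of the other GR and 59.6% of the other MR peaks. Among the intervals with a peak, 121 held a single site and 47 held at least 5 peaks. The 5 richest intervals held 112 of the 763 peaks (14.7%). The widest interval without any, on chromosome 1 between Dsel and Cntnap5a, had 1.16 Mb far from genes.

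The richest interval lay between Pard3 and Nrp1 on chromosome 8, with 16 GR and 20 MR peaks at 25 sites spread over 498 kb. The MR peaks there ranged in −log10 p from 5.20 to 32.8, and 3 of them overlapped an MR washout peak. The next, between Irf2bp2 and Tomm20, packed 16 GR and 17 MR peaks into 26.2 kb at 18 sites, 9 of the MR peaks with a washout peak. The third, between Disc1 and Sipa1l2, held 9 GR and 9 MR peaks within 17.1 kb, and 6 of the MR peaks and 1 GR peak overlapped a washout peak. The fourth lay on chromosome 6 between Prok2, a secreted signal of circadian output, and the Polycomb partner gene Rybp, with 5 GR and 8 MR peaks. The fifth lay on chromosome 11 between the potassium channel gene Kcnj2 and Sox9, with 4 GR and 8 MR peaks.

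**Figure D4:**
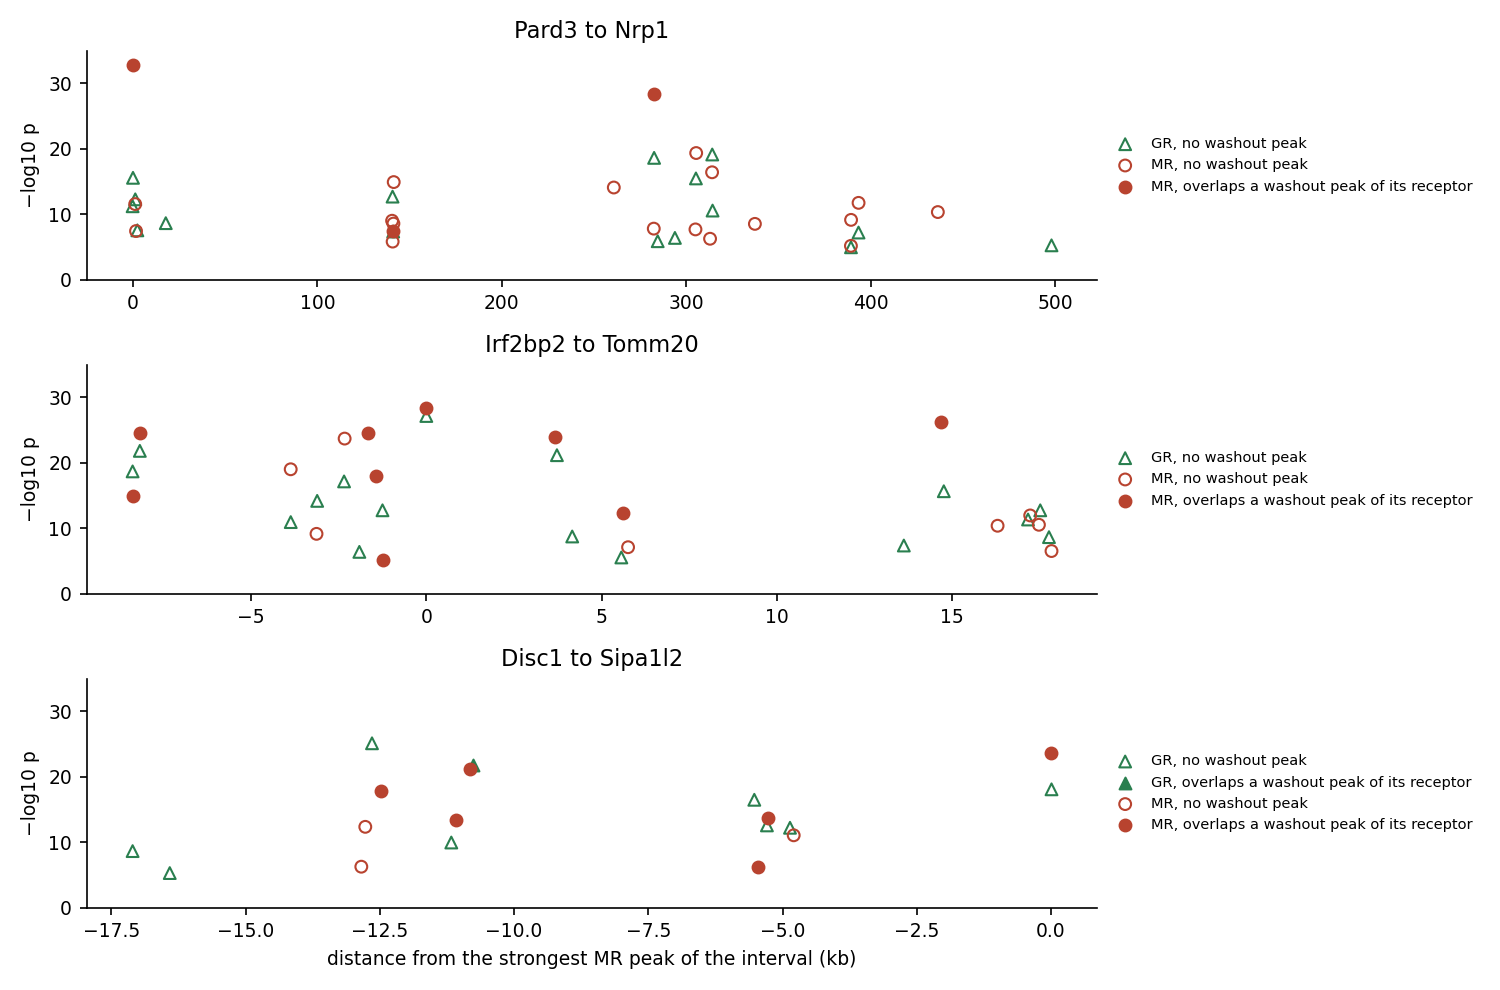
Distance (kb) from the strongest MR peak of the interval on the x axis and −log10 p against input on the y axis, for every GR (triangles) and MR (circles) CORT peak more than 50 kb from genes in 3 intervals of chromosome 8. Filled symbols overlap a washout peak of their receptor, which 3 MR peaks did between Pard3 and Nrp1, 9 between Irf2bp2 and Tomm20, and 6, with 1 GR peak, between Disc1 and Sipa1l2.

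Chromosome 8 held more distant peaks than any other chromosome. It had 57 distant GR peaks (17.1%, beside 11.6% of the whole GR list) and 62 distant MR peaks (14.4%, beside 10.9%). Other chromosomes were further above their share of the list, such as chromosome 3 with 22 GR peaks (6.61%, beside 3.33%) and 32 MR peaks (7.44%, beside 3.79%), and chromosome 1 with 36 GR peaks (10.8%, beside 6.04%). Input border pairs were densest on chromosome 8, at 10.3 per Mb after CORT where the other chromosomes had at most 2.94. The 3 richest intervals lay within 3.02 Mb of it, chr8:125261859-128278147, with 41 of the 57 GR and 46 of the 62 MR peaks. In that stretch all CORT peaks, near and far from genes, numbered 37.1 per Mb for GR and 48.7 for MR, against 9.12 and 11.7 on the rest of the chromosome. Input border pairs there were 3.98 per Mb after CORT, against 10.4, and the 3 intervals had 0 in their distant bases. Without chromosome 8, 2.96% of GR and 2.84% of MR peaks were distant.

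The genes that flanked distant peaks included nearly every transcription factor of sympathetic neuroblasts that could. Of 2604 protein-coding genes that flank a base more than 50 kb from all genes, 383 (14.7%) flanked a distant peak, 299 for GR and 331 for MR, with 247 in common. A list of 19 transcription factors of sympathetic neuroblasts, the cells from which neuroblastoma arises, had 10 members beside such bases, and 9 of them flanked a distant peak. They included Isl1, Sox11, Hand2, Gata3, Tfap2b, Mycn and Meis2, and Tbx3 was the one that did not. The intervals beside the list's genes held 68 distant peaks in 4.02 Mb, or 16.9 per Mb, where all intervals together held 2.11 per Mb. Their input border pairs were 1.24 per Mb, where all intervals had 1.14. Every distant peak in such an interval was counted, also when the gene on its other side was nearer. The list was written with earlier results of these data known, and the counts are a description without a test.

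Isl1 flanked 9 GR and 14 MR peaks from 268 to 1067 kb away, 6 of each with a partner, and 3 of the MR peaks overlapped a washout peak. For most of these GR and MR peaks the gene on the other side, Itga1, was nearer than Isl1. Sox11, a factor of immature neurons, flanked 6 GR and 9 MR peaks, none of which overlapped a washout peak of its own receptor. Hand2 flanked 5 GR and 7 MR peaks, and 6 of the MR peaks overlapped an MR washout peak. Gata3, a zinc-finger factor of the sympathetic lineage, flanked 4 GR and 3 MR peaks, the nearest 81.5 kb away. Mycn, the oncogene amplified in aggressive neuroblastoma, flanked 1 of each, 345 and 312 kb away, with Fam49a nearer to both. Tfap2b flanked 1 GR and 2 MR peaks, all nearer to Pkhd1, and Meis2 flanked 1 MR peak.

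**Figure D5:**
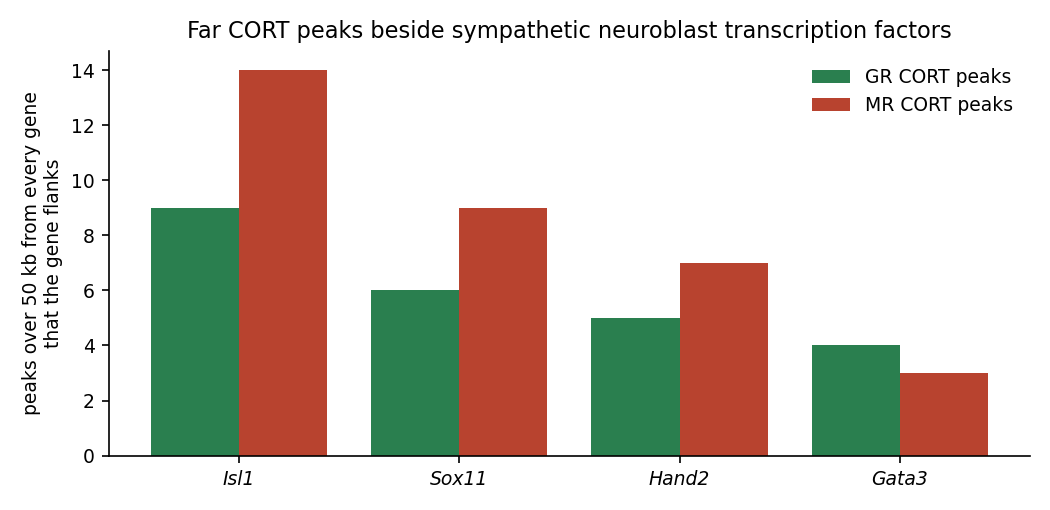
Number of GR (green) and MR (red) CORT peaks more than 50 kb from every gene for which a sympathetic neuroblast transcription factor is the nearest protein-coding gene on one side, for the 4 factors with at least 5 such peaks. Isl1 leads with 9 GR and 14 MR peaks, followed by Sox11 with 6 and 9, Hand2 with 5 and 7, and Gata3 with 4 and 3. For most of the Isl1 peaks the gene on the other side, Itga1, was nearer.

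Of the remaining lists, the 2 large ones had shares of 18.5% and 18.7%, beside 14.7% of all such genes. Of 81 genes of developmental transcription factor families beside such bases, 15 (18.5%) flanked a distant peak, and these included Sox9 with 6 GR and 11 MR peaks and Pou3f3 with 6 and 8. The intervals of this list held 4.35 distant peaks per Mb. This list shares Sox11, Hand2, Gata3, Tfap2b and Meis2 with the neuroblast list. Of 75 cell adhesion and axon guidance genes, 14 (18.7%) did, among them Sema6d, a semaphorin, with 3 GR and 5 MR peaks. Their intervals were vast, 68.8 Mb in all, and held 0.436 peaks per Mb. Of 3 classic glucocorticoid-induced genes beside such bases, Errfi1, an inhibitor of the EGF receptor, flanked 2 GR and 4 MR peaks and Rgs2, a regulator of G-protein signalling, 1 and 2, while Pdk4 flanked none. The intervals of these genes covered only 0.303 Mb, with 9 distant peaks or 29.7 per Mb. They held 1 input border pair, or 3.30 per Mb, where all intervals had 1.14. The genes of the receptors themselves, Nr3c1 and Nr3c2, and also Pgr and Ncoa2 were beside such bases and flanked no distant peak. The intervals of their list covered only 0.749 Mb, where all intervals held 2.11 peaks per Mb. A count of 0 in so little sequence says little about these genes. Expression was not measured in these samples, and no peak was linked to a gene other than by position.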

How the data were processed

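Peaks and border pairs were taken from the files of the 9 samples. The authors trimmed reads by quality, aligned them to mm10 with Bowtie 2, removed duplicates with the same barcode, kept reads with a mapping quality over 20, and combined the replicates to call peaks with MACS2 2.1.1.20160309 at a false discovery rate of 0.05 against input, and border pairs with MACE. Each deposited peak has a −log10 p and a −log10 q. The latter stands under a heading for fold enrichment, and the summit offset under one for q. Border pairs were used by position only, not by their deposited p-value, and the GR CORT border pairs, which have none, were not used.

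Rat GR and MR were expressed according to the study's methods, whereas the deposited description says mouse receptors. Distances ran from the summit to the nearest of 53843 GENCODE M21 genes, and flanking genes were the nearest of 21755 protein-coding genes on each side. Peaks overlapped when they shared 1 bp. Sequence and soft-masking were read from GRCm38 with pysam 0.24.0, and motifs were searched within 100 bp of the summit. Distant peaks were compared with all other CORT peaks of the same receptor by two-sided Fisher's exact tests (scipy 1.17.1, Python 3.11.15), adjusted by Benjamini and Hochberg over 12 comparisons with a threshold of 0.05. These were tested on simulated data first. Named genes flanked the 10 strongest peaks of each receptor by −log10 p and the 5 intervals with most distant peaks. Those in the gene lists are also named, and the peaks of 1 receptor alone, the 3 GR peaks kept after washout, the chromosomes set beside chromosome 8, the 2 farthest peaks and the stretch of chromosome 8 were chosen after their values were seen. The rule for distant peaks and the gene lists were chosen with earlier results of these data known. Alternatives changed the distance, gene set, peak threshold, motif settings, overlap rule, chromosomes and the weighting of the other peaks by strength, 1 at a time. Results at a few of the named sites and genes are not reported here.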

Additional observations from a re-analysis of the deposited data

Results flagged for a closer look

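The MR washout list held 171 peaks more than 50 kb from every gene, a list that the report used only to mark the CORT peaks. Of these, 48 (28.1%, 95% Wilson interval 21.9 to 35.2) overlapped no MR CORT peak, and 37 overlapped no CORT peak of either receptor. Of the MR washout peaks nearer to genes, 1135 of 4685 (24.2%, 23.0 to 25.5) overlapped no MR CORT peak, a share inside the interval of the distant ones. The 48 had a median −log10 p of 7.99 and a maximum of 19.3. The vehicle lists, the control, held 1 GR and 2 MR peaks this far from genes. It was noticed as signal in peaks outside the comparisons of CORT peaks. The files give no depth for the lists, and its part in the count was not tested.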

How the results depend on the processing

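Of 118 alternative values for the 12 comparisons, 97 kept the direction and, where a test was run, the side of the threshold. The other peaks were also weighted to match the distant ones in strength. That setting kept the direction of all 12 comparisons but has no p-value. The odds ratio (OR) changed direction, without passing the adjusted threshold, in these cases. For MR washout it was 0.790 at 100 kb and 0.987 without chromosome 8. For the GR repeat it was 1.12 at 100 kb. For the MR repeat it was 1.36 at 100 kb, 1.19 with protein-coding genes only, 1.02 without chromosome 8, 1.25 with 1 peak per 100 kb bin, and 1.02 without peaks that overlap a vehicle peak. For GR overlap with MR it was 1.56 at a −log10 q of at least 5. For the MR GRE it was 0.979 at that threshold and 0.993 with at most 2 mismatches, and for the GR GRE 0.961 with at most 4. The causes were not tested.

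Comparisons came to pass the threshold with protein-coding genes only, where peaks near non-coding genes joined the distant ones: MR overlap with GR (0.863), GR washout (0.411), GR AP-1 (1.45), MR AP-1 (1.29) and MR GATA (1.196). They also did with a window of 200 bp, for GR AP-1 (1.71), MR AP-1 (1.45), GR GATA (1.44) and MR GATA (1.35). The number of distant peaks was set by the rule. It was 775 GR and 1106 MR at 25 kb, 94 and 127 at 100 kb, 1332 and 1874 with protein-coding genes only, 127 and 245 at a −log10 q of at least 5, and 189 and 209 with 1 peak per bin.

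No paired analysis was possible because each condition has 1 list made from combined replicates. For the same reason no value was computed without a replicate. The files give no depth, and depth decides which weak peaks enter a list.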
